A study of Homo sapiens with 8 samples.

Results

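The 9 genes described here, TYMS, RRM1, RRM2, TK1, DUT, CAD, UMPS, CTPS1 and SLC29A1, encode enzymes of thymidylate, deoxynucleotide and pyrimidine supply and 1 nucleoside transporter. They were taken by symbol from the 17131 genes of the expression table, and the purine pathway was not part of the choice. All 9 were found, and all 9 passed the filter on low counts that left 12434 genes for testing. The RNA came from HaCaT cells, an immortalized human keratinocyte line of wild type genotype by its label, used as a single line. The question was how OTS514, an inhibitor of the kinase TOPK (gene PBK), changed the transcriptome of HaCaT cells kept in M5, a mix of 5 cytokines that models psoriatic keratinocytes. Oncostatin M, TNF-α, IL-1α, IL-17A and IL-22 made up the mix, which all 8 libraries share, and no library without it was analysed here.

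There were 8 libraries, 4 titled M5_O5 and 4 titled M5. The methods give 10 nM OTS514 for 12 h followed by 10 ng/mL M5 for 24 h, whereas the series' own design text places the inhibitor after the M5 culture, for 24 h. The title M5_O5 reads as M5 with inhibitor, but the treatment field of these 4 libraries says that there was none, while that of the M5 libraries names the inhibitor. The 2 labels could not be reconciled, so the groups are named by their titles. Here "higher in M5_O5" means higher with the inhibitor if the titles are right and higher without it if the treatment entries are right. Likewise, "rose" and "fell", and values given from M5 to M5_O5, mean higher or lower in M5_O5 and do not say which group was treated. Nothing in the labels states that the 4 libraries of a group came from separate cultures, so the p-values measure the spread between these libraries, which may be technical. The libraries held between 13708055 and 16922693 counts, the lowest in M5 replicate 1. That library also stood apart from the other M5 libraries in several genes below, and the values without it are given where they matter. In bulk RNA a lower share of cells expressing a gene and less RNA per cell cannot be told apart.

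Cells build pyrimidines de novo from simple precursors: CAD carries the opening steps, DHODH an oxidation in mitochondria, and UMPS the closing steps to UMP, from which CTPS1 makes CTP. Ribonucleotide reductase, a complex of the large subunit RRM1 and the small subunit RRM2, turns ribonucleotides into deoxynucleotides, and TYMS methylates dUMP to dTMP, while DUT removes dUTP and supplies dUMP. Salvage runs beside this: SLC29A1 carries nucleosides across the plasma membrane and TK1 phosphorylates thymidine. In dividing cells, keratinocytes of the basal epidermis included, RRM2, TK1 and TYMS are known for their rise around S phase, and E2F factors, NF-Y at CCAAT boxes and the CHR element are known regulators of cell cycle genes.

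The promoter windows of the members, from 250 bases before to 50 bases after each annotated start, were read from RefSeq (GRCh38.p14) for all 9 genes. Stretches from 5 of them are shown because these genes carry out the dTMP and dNTP steps, where the members differed most (RRM2, TYMS) and among the least (RRM1, DUT) between the groups. Capitals mark the E2F motif in TYMS and DUT and the CCAAT box in RRM2, RRM1 and TK1, read 5′ to 3′ on the strand of the gene. The DUT, RRM2 and TK1 stretches each lie before 1 of several annotated starts of the gene. The TYMS stretch is chr18:657553-657652 (+), DUT chr15:48332154-48332183 (+), RRM2 chr2:10122646-10122675 (+), RRM1 chr11:4094635-4094664 (+) and TK1 chr17:78187100-78187129 (-).
TYMS: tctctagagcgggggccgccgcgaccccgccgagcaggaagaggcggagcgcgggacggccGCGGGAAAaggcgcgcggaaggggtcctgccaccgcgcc
DUT: gGCGGGAAAtttcggtTTTGGCGCgctccc
RRM2: CCAATgggaagggccggggcaccaaagcca
RRM1: tttccgccgggcatgtccatatCCAATggg
TK1: ATTGGccccatggcggcggggccggctcgt

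The E2F motif was searched as TTTGGCGC, TTTCGCGC, TTTCCCGC or TTTGCCGC on both strands, and 3.99% of 27305 human genes held it in at least 1 of their windows (3.31% of 35116 windows). TYMS had 1 copy, 39 bases before its start. DUT had 2 copies, 42 and 27 bases before 1 of its 4 starts. The other 7 members had none in these windows. CCAAT, on either strand, stood in 39.7% of genes (34.6% of windows) and in 4 members. RRM2 had it 3 times before 1 of its 2 starts, at 123, 93 and 66 bases, and once at 249 bases before the other, TK1 had it at 77 and 46 bases before 1 start, RRM1 once at 28 bases, and CAD once at 250 bases. The CHR letters TTTGAA, on either strand, stood in 18.2% of genes (15.2% of windows) and in 4 members, UMPS, SLC29A1, RRM1 and DUT. The E-box CACGTG stood in 8.77% of genes (7.26% of windows) and, among the members, in SLC29A1 alone, and CTPS1 held none of the 4 motifs. No 2 matches overlapped in the members, and a match describes the sequence only.

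Of the 9 members, 8 were higher in M5_O5 (adjusted p under 0.05 by edgeR's quasi-likelihood test with Benjamini-Hochberg adjustment over all 12434 genes) and none was lower. Over all genes tested, 19.5% were called higher and 17.6% lower. The median log2 fold change was 0.82 over the 9 members and 0.01 over all genes tested. RRM2 and TYMS also rose by at least 2-fold, a rule that 2.87% of all genes tested met in this direction. All 4 M5_O5 libraries lay above all 4 M5 libraries in 8 members, which was so for 17.8% of all genes tested. The member that overlapped was RRM1, and the member not called was UMPS. The members were chosen with earlier results of these data known, so these counts may partly restate that choice. With M5 replicate 1 left out, the call was again made for 8 members, with a median of 0.78, and with the expression level trend removed for 8 members, with a median of 0.64.

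**Figure D1:**
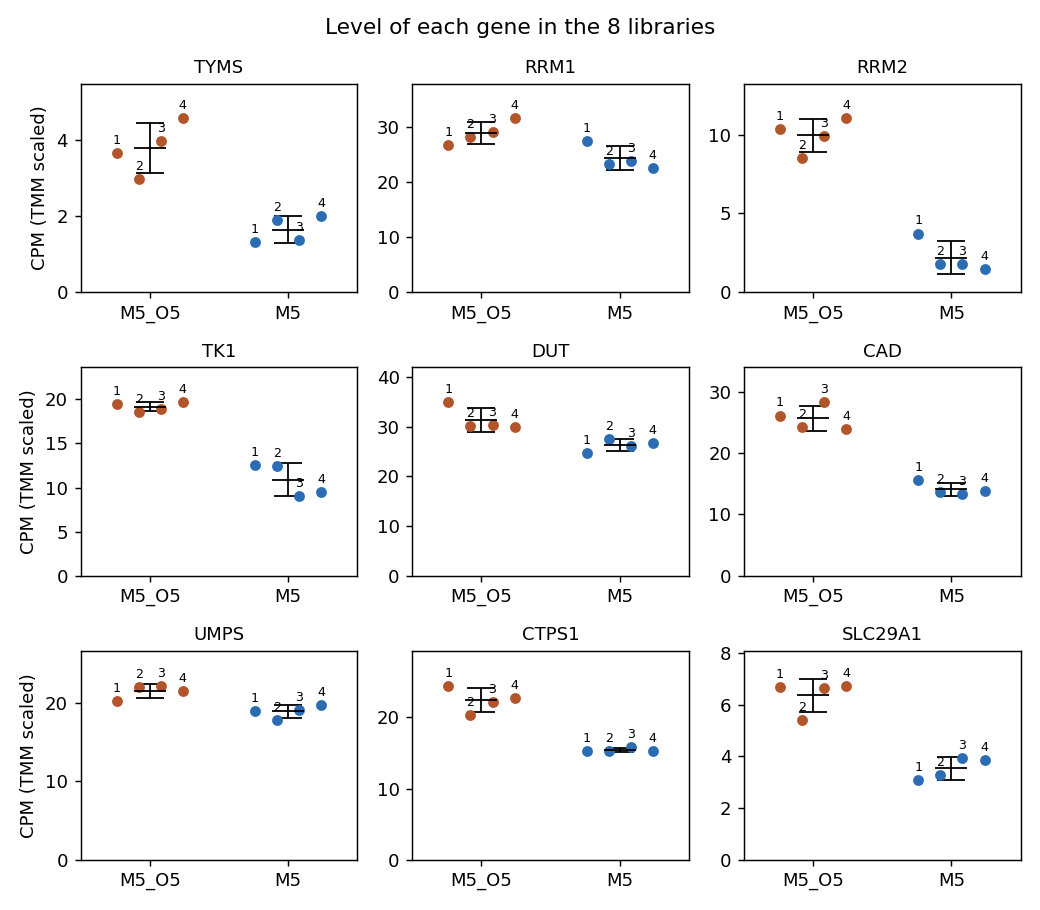
CPM (counts scaled to a common library size with TMM factors, linear axis from 0) of each of the 9 genes in the 4 M5_O5 and 4 M5 libraries; the numbers are replicate numbers, the wide bar is the mean and the whiskers are 1 SD. The group means of RRM2 and TYMS differ most in proportion to their level. UMPS sits just apart, and RRM1 overlaps through M5 replicate 1 at 27.4 CPM.

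RRM2, the small subunit of ribonucleotide reductase and the one that limits its activity in S phase, differed most. Its level, in CPM (counts scaled to a common library size), was 10.3, 8.50, 9.96 and 11.1 in M5_O5 replicates 1 to 4 and 3.72, 1.76, 1.78 and 1.43 CPM in the M5 replicates. The groups did not overlap, and M5 replicate 1 was higher than the other M5 libraries. The mean was 9.96 ± 1.08 CPM against 2.17 ± 1.04 (SD, n = 4 each). The fold fitted by edgeR was 4.65, which on the log2 scale is 2.22 (SE 0.21, edgeR adjusted p = 4.76e-06), and 2.58 without M5 replicate 1. In counts, RRM2 had between 148 and 186 reads per M5_O5 library and between 23 and 51 per M5 library, so its M5 level is the less precise of the pair.

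RRM1, the large subunit, which holds the catalytic site, differed little. It stood at 26.7, 28.0, 29.0 and 31.5 CPM in M5_O5 and at 27.4, 23.2, 23.8 and 22.6 CPM in M5. The groups overlapped, since M5 replicate 1 exceeded M5_O5 replicate 1. The log2 fold change was 0.25 (SE 0.08, edgeR adjusted p = 0.0233), a 1.19-fold difference. This call was lost when M5_O5 replicate 4 or M5 replicate 2, 3 or 4 was left out (adjusted p = 0.0778, 0.0640, 0.0645 and 0.0857), and was kept without M5 replicate 1 (log2 fold change 0.31, adjusted p = 0.00317). The transcripts of the 2 subunits therefore did not keep their ratio, and protein was not measured in these libraries. RRM2 over RRM1, as a ratio of CPM within a library, was 0.387, 0.303, 0.344 and 0.351 in M5_O5 and 0.136, 0.0761, 0.0748 and 0.0635 in M5. The log2 ratio differed by 2.04 between the groups (exact two-sided permutation test, p = 0.0286, the smallest p that 4 against 4 libraries allow, adjusted p = 0.04 over the 7 ratios tested).

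RRM2B, the alternative small subunit known as a p53 target and for dNTP supply outside S phase, was itself higher in M5_O5 (log2 fold change 0.52, SE 0.11, edgeR adjusted p = 0.00268). RRM2 rose more: the log2 ratio of RRM2 to RRM2B was higher by 1.78 in M5_O5, without overlap (exact permutation p = 0.0286, adjusted p = 0.04). SAMHD1, which breaks down dNTPs, also rose (log2 fold change 0.49, SE 0.07, edgeR adjusted p = 0.000100). Transcripts of a maker and a breaker of dNTPs were thus higher in the same libraries.

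TYMS, thymidylate synthase, was the member with the lowest counts, between 18 and 77 per library. Its level was 3.66, 2.99, 3.97 and 4.58 CPM in M5_O5 and 1.31, 1.89, 1.38 and 1.99 CPM in M5. Every M5_O5 library was above every M5 library, and here M5 replicate 1 was the lowest. The mean was 3.80 ± 0.66 CPM against 1.65 ± 0.35 (SD, n = 4 each). The fold fitted by edgeR was 2.29, a log2 fold change of 1.19 (SE 0.19, edgeR adjusted p = 0.000312). ENOSF1 overlaps TYMS in the annotation. Whether the counting used strand is not given in the sources used here, so reads from the shared span could have been given to either gene. ENOSF1 itself had 118 to 169 counts per library and was not called (log2 fold change 0.17, edgeR adjusted p = 0.164). Its groups were nevertheless apart by a narrow margin, at 8.83 to 9.71 CPM in M5_O5 and 7.72 to 8.82 CPM in M5.

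DUT, the dUTPase that keeps uracil out of DNA, was the most abundant member per length. It stood at 34.9, 30.2, 30.3 and 30.0 CPM in M5_O5 and at 24.7, 27.5, 26.2 and 26.8 CPM in M5. The groups did not overlap, and M5_O5 replicate 1 lay above the other 3 libraries of its group. DUT's log2 fold change was 0.25 (SE 0.07, edgeR adjusted p = 0.0130), a 1.19-fold difference. DUT has a nuclear and a mitochondrial form made from different transcripts. Which form each transcript encodes was not assigned here. NM_001025248 held 63.2% of the gene's TPM on average in M5_O5 and 66.9% in M5, and NM_001948 held 12.2% and 11.6%. NM_001025249 held 11.4% and 10.1%, and XM_017021988 held 11.6% and 9.91%, in the same order. With the most counted transcript alone the log2 fold change was 0.19 and was no longer called (edgeR adjusted p = 0.228).

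TK1, the cytosolic thymidine kinase of S phase, stood at 19.4, 18.6, 18.9 and 19.7 CPM in M5_O5 and at 12.6, 12.5, 9.08 and 9.47 CPM in M5. The M5_O5 libraries were close to one another, while the M5 libraries fell into a higher pair, replicates 1 and 2, and a lower pair. The log2 fold change was 0.82 (SE 0.11, edgeR adjusted p = 5.65e-05), from a mean of 10.9 ± 1.88 CPM in M5 to 19.1 ± 0.50 in M5_O5 (SD, n = 4 each). TK2, the mitochondrial thymidine kinase, which is not tied to S phase, had a log2 fold change of 0.10 (SE 0.11, edgeR adjusted p = 0.516). The log2 ratio of TK1 to TK2 was higher by 0.74 in M5_O5, without overlap (exact permutation p = 0.0286, adjusted p = 0.04).

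CAD, the large enzyme that opens pyrimidine synthesis, stood at 26.1, 24.3, 28.3 and 23.9 CPM in M5_O5 and at 15.6, 13.6, 13.3 and 13.8 CPM in M5. The groups were far apart for their spread, 25.6 ± 2.0 against 14.1 ± 1.04 CPM (SD, n = 4 each). CAD's log2 fold change was 0.86 (SE 0.08, edgeR adjusted p = 5.17e-06), or 1.82-fold. DHODH, which acts between CAD and UMPS, moved by a similar amount, with a log2 fold change of 0.86 (SE 0.14, edgeR adjusted p = 0.000381) at a lower level of 3.85 to 4.36 CPM in M5_O5 and 1.97 to 2.48 CPM in M5.

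UMPS, which closes the pathway to UMP, was the member not called. It stood at 20.2, 21.9, 22.1 and 21.5 CPM in M5_O5 and at 18.9, 17.8, 19.0 and 19.7 CPM in M5. The ranges were apart by a narrow margin, between 19.7 and 20.2 CPM. The log2 fold change was 0.18 (SE 0.07, edgeR adjusted p = 0.0557). Where the counts were scaled by library size alone it was 0.30 (edgeR adjusted p = 0.00582), a scaling that moved the median of all genes to 0.13. The log2 ratio of CAD to UMPS differed by 0.68 (exact permutation p = 0.0286, adjusted p = 0.04), from 0.699 to 0.826 as a ratio of CPM in the M5 libraries to between 1.11 and 1.29 in M5_O5. The transcripts of the opening and closing enzymes of the pathway therefore changed unequally.

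CTPS1, the CTP synthase known for its part in dividing lymphocytes, stood at 24.4, 20.4, 22.2 and 22.8 CPM in M5_O5 and at 15.3, 15.2, 15.9 and 15.3 CPM in M5. The 4 M5 libraries lay close together, with an SD of 0.29 CPM, and the gap to M5_O5 was wider than either group. For CTPS1 the log2 fold change was 0.54 (SE 0.08, edgeR adjusted p = 0.000116), or 1.45-fold. CTPS2, its paralog, had a log2 fold change of 0.14 (SE 0.09, edgeR adjusted p = 0.222), and the log2 ratio of CTPS1 to CTPS2 was higher by 0.40 in M5_O5 without overlap (exact permutation p = 0.0286, adjusted p = 0.04).

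SLC29A1, the equilibrative nucleoside transporter ENT1, stood at 6.68, 5.40, 6.64 and 6.72 CPM in M5_O5 and at 3.07, 3.27, 3.95 and 3.86 CPM in M5. M5_O5 replicate 2 was below the rest of its group and still above every M5 library. The log2 fold change was 0.84 (SE 0.13, edgeR adjusted p = 0.000293), or 1.79-fold. Its counts were spread over 6 transcripts, whose shares varied widely between libraries, and with the most counted one alone the call was lost (log2 fold change 0.80, edgeR adjusted p = 0.718). SLC29A2, the related transporter ENT2, rose as well (log2 fold change 0.60, SE 0.10, edgeR adjusted p = 0.000468). The log2 ratio of the 2 transporters differed by 0.24, with overlap (exact permutation p = 0.2, adjusted p = 0.2).

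**Figure D2:**
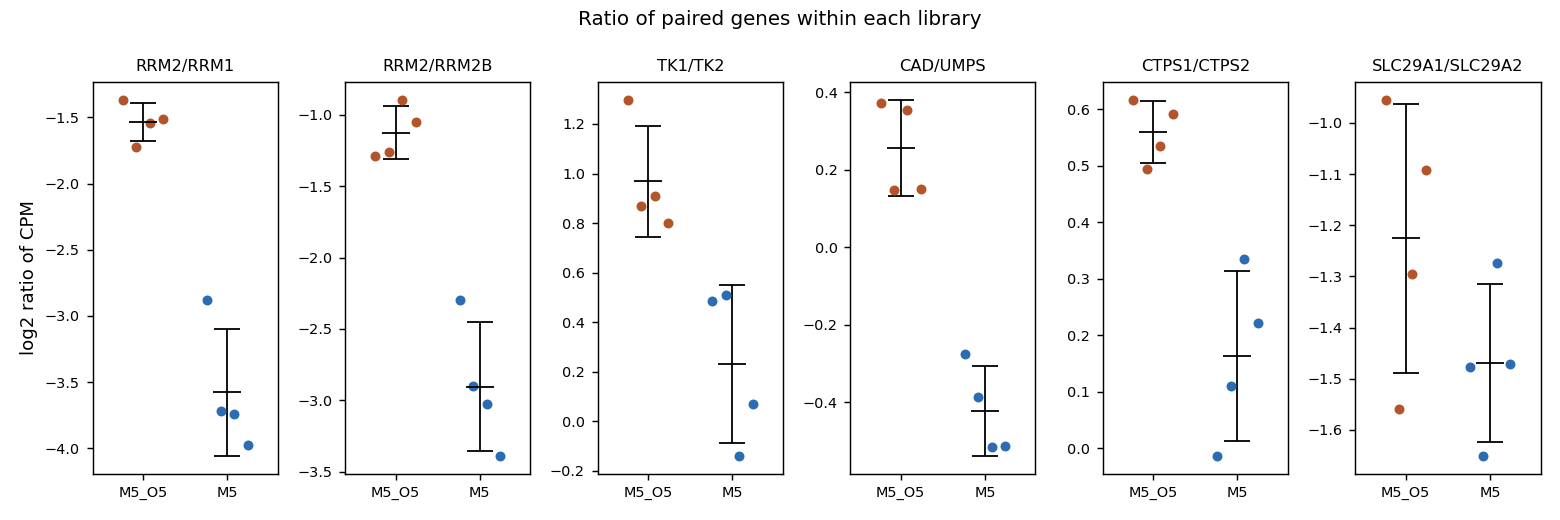
Log2 ratio of CPM of 6 gene pairs within each library (points, each panel with its own axis), with the mean and 1 SD for 4 M5_O5 and 4 M5 libraries. The groups are apart in 5 panels, widest for RRM2/RRM1 with a difference of 2.04, and overlap for SLC29A1/SLC29A2.

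A permutation of the CPM values of each member over the libraries gave the smallest exact two-sided p, 0.0286, for 8 members, and 0.0571 for RRM1 (9 single tests, not adjusted). That smallest p is reached only where the groups do not overlap, so these are the 8 members already counted as apart. Of all genes tested, 17.8% were apart in the same direction. UMPS was thus separated by rank and RRM1 was not, the reverse of their edgeR calls, with log2 fold changes of 0.18 and 0.25.

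Levels of different genes were compared per length, in TPM, which divides by transcript length. In M5, DUT was highest at 23.3 ± 0.64 TPM, followed by TK1 at 14.7 ± 3.09, RRM1 at 13.0 ± 2.08, CTPS1 at 9.18 ± 0.71, UMPS at 4.48 ± 0.39, CAD at 3.07 ± 0.43, SLC29A1 at 2.91 ± 0.34, TYMS at 1.95 ± 0.41 and RRM2 at 1.13 ± 0.64 (SD, n = 4). Neighbours in this order whose libraries overlapped were TK1 and RRM1, CAD and SLC29A1, and TYMS and RRM2. In M5_O5, DUT at 30.7 ± 3.13 and TK1 at 27.9 ± 1.5 TPM overlapped at the top, RRM1 at 16.7 ± 1.33 and CTPS1 at 14.7 ± 1.62 overlapped in the middle, and the 5 others lay between 4.94 and 6.11, each overlapping its neighbour. RRM2 thus had the lowest mean per length in M5, where it overlapped TYMS. In M5_O5 its range overlapped those of CAD, SLC29A1, UMPS and TYMS.

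**Figure D3:**
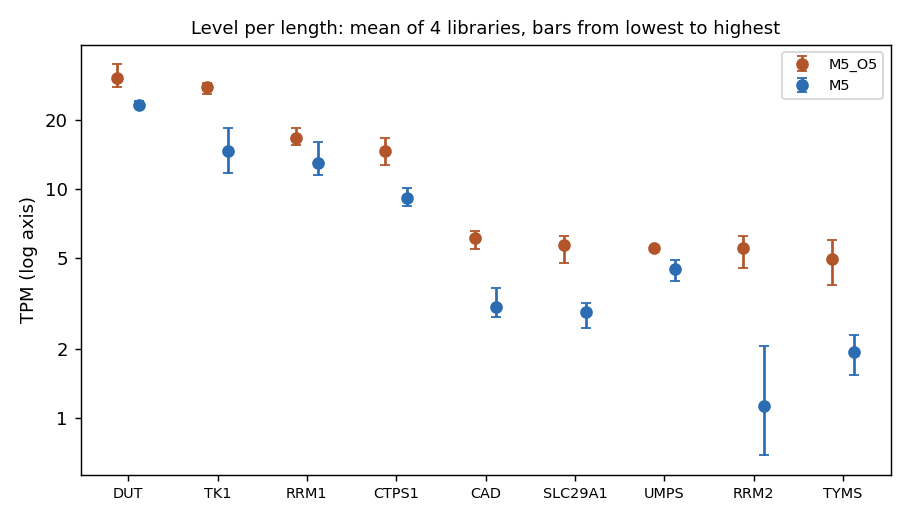
Mean TPM of the 9 members on a log axis in M5_O5 and M5; points are means of 4 libraries and bars run from the lowest to the highest library. The spread between members is wider in M5, where RRM2 lies at 1.13 and DUT at 23.3 TPM.

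The libraries of a group differed among themselves in a way that was not the same for all members. M5 replicate 1 was the highest M5 library for RRM2, RRM1, TK1 and CAD and the lowest for TYMS, SLC29A1 and DUT. Averaged over the members on the log2(CPM + 0.5) scale, its value of 3.36 lay above the 3.22 to 3.27 of the remaining M5 libraries and below the 3.90 to 4.07 of M5_O5. The same average over 25 genes of G2 and mitosis was 3.16 in M5 replicate 1, 2.20 to 2.31 in replicates 2 to 4 and 3.52 to 3.62 in M5_O5, so this library lay further from its group in the mitotic genes than in the members.

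Around the members, 17 other genes of thymidylate and dNTP supply were tested, of which 7 were higher in M5_O5 and 1 lower, with a median log2 fold change of 0.30. Beside SAMHD1 and RRM2B they included NME1, a nucleoside diphosphate kinase (log2 fold change 0.95, SE 0.09, edgeR adjusted p = 4.71e-06), and DCTPP1, a pyrophosphatase that cleans the dCTP pool (0.92, SE 0.12, adjusted p = 7.96e-05). NME1 and its neighbour NME2 are close copies, so their reads may be split uncertainly. The one that fell was DCTD, the dCMP deaminase that feeds dUMP to TYMS (-0.20, SE 0.06, edgeR adjusted p = 0.0132). The call on DCTD was not made where counts were scaled by library size alone, which gave 8 higher and 0 lower. With cyclic loess offsets, which remove a trend of the difference on expression level, 7 were higher and 2 lower, and the median fell to 0.125.

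Of 17 other genes of pyrimidine synthesis, salvage, breakdown and transport, 14 were tested, with 4 higher, 2 lower and a median of 0.09. Over all genes tested, 19.5% were called higher and 17.6% lower. Beside DHODH and SLC29A2, UCK2, a uridine-cytidine kinase of salvage, rose (log2 fold change 0.42, SE 0.09, edgeR adjusted p = 0.00252). SLC28A3, the concentrative nucleoside transporter CNT3, fell from 177, 207, 207 and 205 CPM in the M5 replicates to 109, 137, 126 and 142 CPM in M5_O5 (-0.63, SE 0.08, edgeR adjusted p = 4.42e-05). The nucleoside carriers thus did not move together: SLC29A1 and SLC29A2 rose and SLC28A3 fell. UCKL1, a relative of UCK2, also fell, with overlapping groups (-0.40, SE 0.09, edgeR adjusted p = 0.00466).

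The purine pathway, which the members leave out, had 10 of 18 tested genes higher and 2 lower, with a median of 0.24. PAICS, an enzyme in the middle of purine synthesis, rose from 17.9 to 20.5 CPM in the M5 libraries to between 39.5 and 46.9 CPM in M5_O5 (log2 fold change 1.18, SE 0.08, edgeR adjusted p = 2.42e-07). PRPS1, which makes the ribose phosphate donor that UMPS also uses, rose by 1.03 (SE 0.11, adjusted p = 1.67e-05), and ATIC, which closes IMP synthesis, by 0.57 (SE 0.07, adjusted p = 3.46e-05). PNP, a salvage phosphorylase (-0.25, SE 0.08, edgeR adjusted p = 0.0193), and ADSS2 (-0.20, SE 0.06, edgeR adjusted p = 0.0240) fell, with overlapping groups for PNP. The counts were 13 higher and 0 lower with library size scaling and 9 higher and 0 lower with the expression level trend removed.

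**Figure D4:**
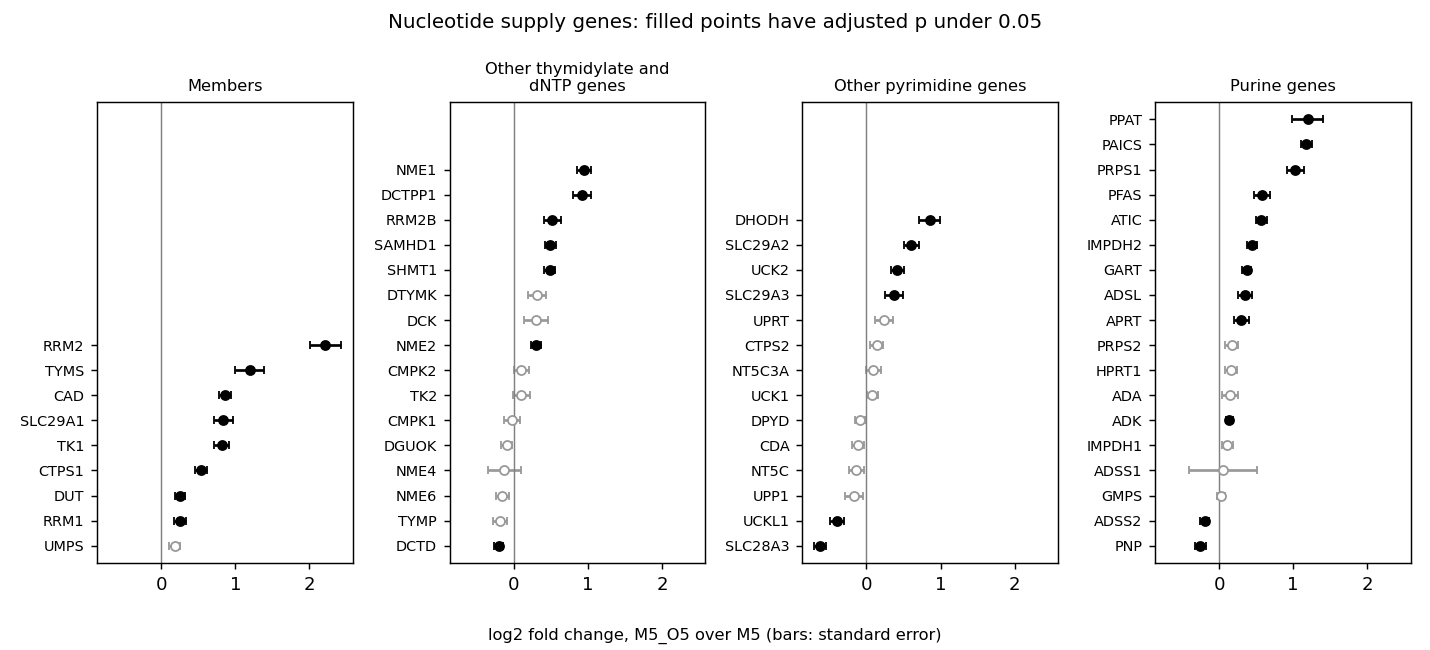
Log2 fold change of M5_O5 over M5 (points, with the standard error as bars) for the 9 members and for tested genes of 3 related lists, less 1 gene of the dNTP list that is not drawn; filled points have an edgeR adjusted p under 0.05 and open points do not. Among the members 8 of 9 points are filled and right of 0, against 4 of 14 among the other pyrimidine genes and 10 of 18 among the purine genes. In each of these other lists 2 points are filled and left of 0. Of the 17 tested genes of the dNTP list, the one not drawn included, 7 were called higher and 1 lower. Over all genes tested, 19.5% were called higher and 17.6% lower. Members and lists were chosen with earlier results of these data known, so the contrast may partly restate that choice.

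Genes of S phase, and of G2 and mitosis, were read beside the members. Of 31 S phase genes, 17 were higher and 2 lower, with a median of 0.43. UHRF1, which keeps DNA methylation at forks (1.31), and the replication factors MCM6 (1.53) and MCM10 (2.21) rose, with edgeR adjusted p = 7.77e-06, 2.14e-05 and 2.14e-05. POLE (-0.27, edgeR adjusted p = 0.00488) and MCM7 (-0.19, edgeR adjusted p = 0.0284) fell, with overlapping groups for MCM7. The S phase counts were 22 higher and 0 lower with library size scaling, and 12 higher and 1 lower, with a median of 0.24, with the expression level trend removed. All 25 genes of G2 and mitosis were higher, with a median of 1.08, or 1.46 without M5 replicate 1, and 24 of them were called with the expression level trend removed. The part of these shifts in the members' levels was not tested.

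Of 15 E2F, RB and MYC factors, 3 were higher and 2 lower, with a median of 0.09. These counts were near the shares over all genes tested, 19.5% higher and 17.6% lower. E2F1 stood at 2.67, 1.09, 2.73 and 2.14 CPM in M5_O5 and at 0.584, 0.653, 0.658 and 0.872 CPM in M5 (log2 fold change 1.62, SE 0.30, edgeR adjusted p = 0.000978). MYC, known as a regulator of CAD and of PAICS, rose by 0.47 (SE 0.07, adjusted p = 0.000156), and RBL1, a pocket protein, by 0.36 (SE 0.13, adjusted p = 0.0436). RBL2 (-0.21, edgeR adjusted p = 0.0109) and E2F4 (-0.23, edgeR adjusted p = 0.0488), which form the repressor complex of resting cells, fell slightly. The groups overlapped for E2F4, at 62.8 to 80.5 CPM in M5_O5 and 72.8 to 91.2 in M5, and for RBL1.

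The labelled cell type was borne by its markers. The 12 keratinocyte markers summed to between 22405 and 25203 CPM in M5_O5 and between 27264 and 30910 CPM in M5, with 8 of 12 lower in M5_O5, KRT16 (-0.51, edgeR adjusted p = 5.83e-05), TP63 (-0.29, adjusted p = 0.000834) and KRT14 (-0.40, adjusted p = 0.000868) among them. Of 7 fibroblast markers 3 were tested, and 1, COL1A1, was lower (-0.58, adjusted p = 0.000168), and their sum was 33.1 to 36.6 CPM in M5_O5 and 43.1 to 58.3 in M5. Of 7 immune markers 1 was tested, CD68, a lysosomal gene not limited to immune cells (-0.45, edgeR adjusted p = 0.00675, with overlapping groups). PTPRC and CD4 were at 0 in all 8 libraries. CD3E was low in every library, at 0.178 to 0.238 CPM in M5_O5 and 0.311 to 0.522 in M5, as was ITGAM at 0.230 to 0.652 and 0.526 to 0.685 CPM, and LYZ reached at most 0.461 CPM. Melanocyte markers summed to at most 1.13 CPM and endothelial markers to at most 0.914 CPM. The part of these shifts in the members' differences was not tested.

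Among genes outside the members that averaged 10 CPM or more, the 5 whose log2 level followed the members' mean most closely over the 8 libraries were SERPINB7, an epidermal serpin (Pearson r = 0.9954), NOLC1, a nucleolar protein (0.9954), ME1, the malic enzyme (0.9939), ALDH18A1, of proline synthesis (0.9936), and DISP2 (0.9934). The 8 points share the difference between the groups, so these values describe the pattern only. Their log2 fold changes lay between 0.43 for ALDH18A1 and 0.86 for ME1.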

How the data were processed

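Total RNA of 8 HaCaT libraries was sequenced. The authors deposited estimated counts per transcript with TPM and FPKM beside them; FPKM were not used. The methods name HISAT2 and StringTie, and the submitters' processing notes list HISAT2 2.1.0, Bowtie2 2.2.5, RSEM 1.2.8 and mm10, a mouse build that human transcript identifiers cannot come from. The counter, annotation release and strand setting therefore remain uncertain.

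The table held 86639 transcript rows, and many estimated counts were not whole. Counts were summed per gene and rounded, giving 17131 genes, 59 of them without a symbol (at most 0.0201% of a library). No sample column was left unassigned (0). edgeR 4.0.16 (R 4.3.3; TMM, filterByExpr, quasi-likelihood test without covariates, Benjamini-Hochberg adjustment) was fitted on all 12434 genes that passed, with a common biological variation of 7.42%. CPM are TMM scaled. Exact permutation tests used scipy 1.17.1. DESeq2 1.42.0 and limma 3.58.1 on log2(TPM + 1) and log2(TPM + 0.1) were alternatives, with other scalings, filters and transcript sums, a block for the replicate number, and fits that omitted 1 library at a time.

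On simulated data over 12434 genes with 200 changed by 1 on the log2 scale, edgeR recovered 193 with 6 false calls. The simulation used 1 common dispersion, balanced changes and no library set apart from its group. It therefore does not give the error for smaller differences such as those of RRM1 and DUT. No libraries of a group agreed within sampling noise (chi-square per gene 2.00 to 15.7). The members and lists were chosen with earlier results of these data known. Genes named are the members, their pairs, overlapping genes, up to 3 per list and direction with the smallest p among those called, and the 5 nearest in pattern. The members had 18 to 601 counts per library. Values of 1 gene of the lists and of its ratio to a member are not reported here.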

Additional observations from a re-analysis of the deposited data

Results flagged for a closer look

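In 32 groups of 4 libraries, a library stood far from the other 3 of its group in 3 cases, and about 1 in 20 such groups would by chance. RRM2 was at 3.72 CPM in M5 replicate 1 and at 1.43 to 1.78 CPM in the other M5 libraries. DUT was at 34.9 CPM in M5_O5 replicate 1 and at 30.0 to 30.3 CPM in the others of its group. SLC29A1 was at 5.40 CPM in M5_O5 replicate 2 and at 6.64 to 6.72 CPM in the others of its group.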

How the results depend on the processing

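No member changed direction under any alternative, and 168 member values kept their side of the threshold, 6 lost it and 6 gained it. The number of members called higher was 8, between 7 and 9 with each library left out, and 2 where a fold of 2 was also required. The number of genes called was 4612, between 3578 and 5376 with each library left out, and 2214 with only the most counted transcript of each gene; that table holds fewer counts per gene. The calls lost were RRM1 without M5_O5 replicate 4 or M5 replicate 2, 3 or 4, and DUT and SLC29A1 with the most counted transcript. The calls gained were all UMPS: upper quartile factors (0.24), library size only (0.30), at least 10 counts in every library (0.19), limma on log2(TPM + 1) (0.26) and log2(TPM + 0.1) (0.30), and without M5_O5 replicate 1 (0.21). With a replicate block 8 members were called and 5255 genes over all; same-numbered libraries deviated together weakly or not at all (correlations 0.21, 0.10, -0.00 and 0.01, and only replicates 1 and 2 matched their own number best), so the numbers were not taken as pairs. With each library left out, the log2 ratios ranged from 1.91 to 2.28 for RRM2/RRM1, 1.62 to 1.98 for RRM2/RRM2B, 0.61 to 0.83 for TK1/TK2, 0.64 to 0.73 for CAD/UMPS, 0.34 to 0.45 for CTPS1/CTPS2 and 0.15 to 0.35 for SLC29A1/SLC29A2; an exact permutation test of 3 against 4 libraries cannot go below p = 0.0571, so these have no call. Values quoted without M5 replicate 1 were chosen after seeing the data. The causes of these changes were not tested. Counts were lowest for TYMS, RRM2 and SLC29A1, at 18, 23 and 42 in their lowest libraries, and spread between libraries adds to counting error.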
